A study of Mus musculus with 12 samples.

Results

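The proteasome subunit genes were followed in the livers of 12 mice on a high-fat diet (HFD). They were taken as every gene symbol of the expression table that starts with Psma, Psmb, Psmc, Psmd or Psme and a number, leaving out lines that join several symbols and symbols ending in "ip". The rule found 42 of the 23849 symbols. Of these, 40 reached a mean of 1 FPKM (fragments scaled to the length of the transcript and to the mapped reads of the library) and were tested among 9806 genes. The other 2 were Psma8, a testis form of an alpha subunit, with a mean of 0.338 FPKM over the 12 mice, and Psmb11, the thymus form of a catalytic subunit, which was listed at 0 in every mouse.

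All mice were male, of C57BL/6J background and, in the series' design text, 8 weeks old, and were fed HFD for 4 weeks before and 2 weeks during treatment. Vehicle mice received drinking water by gavage, given daily shortly before lights off. Treated mice received Policaptil Gel Retard by gavage at the same hour. It is a blend of fibers that forms a gel and is named Libramed in the sample labels. Because gavage came at a fixed hour, the time of day cannot be told apart from the time since gavage. Livers were collected at ZT0 or ZT12 (Zeitgeber time, hours after lights on; ZT12 is when mice become active and begin to eat), with 3 mice in each of the 4 groups. There was no group on normal diet here, so every value is from a liver under HFD.

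The proteasome is the large protease that breaks down proteins tagged with ubiquitin. Its core particle is a barrel of alpha rings, which form the gate, around beta rings, which hold the cutting sites. The regulatory particle caps the barrel: its base holds a ring of ATPases that unfold the substrate, and its lid removes the ubiquitin chain. In cells exposed to interferon, the standard catalytic subunits Psmb6, Psmb7 and Psmb5 are replaced by Psmb9, Psmb10 and Psmb8, which form the immunoproteasome and favour peptides for MHC class I, and the PA28 activator (Psme1 and Psme2) can take the place of the cap.

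Differences by time of day went in both directions. At ZT12 the 3 immunoproteasome subunits and Psme1 were higher than at ZT0, 10 subunits of the alpha ring, base, lid and base assembly chaperones were lower, and none of the 6 standard beta subunits measured passed the test in either direction. The 4 of 40 that were higher compare with 15.9% of all genes tested, and the 10 that were lower with 13.8%. No subunit gene passed the adjusted threshold for treatment. Of all 9806 genes, 0 passed at ZT0 and 0 at ZT12, and 1 was higher and 1 lower over both times. The promoters of the 4 genes that were higher, and of the 2 with the smallest p among those that were lower, are printed here so that the sequence before each start can be seen beside its values. Each is the first RefSeq promoter listed for the gene (build GRCm38.p6), 250 bases before and 50 after the start, read in the direction of transcription. Capitals mark matches, on either strand, to the 7 motifs searched.
Psmb8, chr17:34197945-34198244, plus strand: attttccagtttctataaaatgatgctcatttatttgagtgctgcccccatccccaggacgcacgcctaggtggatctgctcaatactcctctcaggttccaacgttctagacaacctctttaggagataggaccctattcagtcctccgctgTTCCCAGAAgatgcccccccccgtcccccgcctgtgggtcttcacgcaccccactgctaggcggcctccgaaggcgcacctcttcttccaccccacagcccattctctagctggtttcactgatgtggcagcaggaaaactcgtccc
Psmb9, chr17:34187281-34187580, minus strand: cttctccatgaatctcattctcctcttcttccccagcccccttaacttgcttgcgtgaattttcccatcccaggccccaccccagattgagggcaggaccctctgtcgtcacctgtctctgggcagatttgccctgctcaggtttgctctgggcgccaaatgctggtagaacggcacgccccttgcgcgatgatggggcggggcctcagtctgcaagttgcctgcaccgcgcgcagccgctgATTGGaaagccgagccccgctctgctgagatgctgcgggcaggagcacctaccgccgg
Psmb10, chr8:105938343-105938642, minus strand: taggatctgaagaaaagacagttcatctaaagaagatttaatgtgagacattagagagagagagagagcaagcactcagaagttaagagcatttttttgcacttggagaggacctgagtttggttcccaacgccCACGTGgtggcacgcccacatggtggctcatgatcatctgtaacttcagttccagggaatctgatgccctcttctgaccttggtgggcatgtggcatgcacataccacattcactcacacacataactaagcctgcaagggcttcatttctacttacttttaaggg
Psme1, chr14:55578244-55578543, plus strand: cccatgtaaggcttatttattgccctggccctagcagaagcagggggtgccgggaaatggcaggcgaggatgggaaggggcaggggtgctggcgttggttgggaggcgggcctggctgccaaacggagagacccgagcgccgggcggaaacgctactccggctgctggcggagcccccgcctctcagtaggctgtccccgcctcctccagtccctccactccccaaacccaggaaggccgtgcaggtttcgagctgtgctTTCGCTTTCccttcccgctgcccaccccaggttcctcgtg
Psmc2, chr5:21785025-21785324, plus strand: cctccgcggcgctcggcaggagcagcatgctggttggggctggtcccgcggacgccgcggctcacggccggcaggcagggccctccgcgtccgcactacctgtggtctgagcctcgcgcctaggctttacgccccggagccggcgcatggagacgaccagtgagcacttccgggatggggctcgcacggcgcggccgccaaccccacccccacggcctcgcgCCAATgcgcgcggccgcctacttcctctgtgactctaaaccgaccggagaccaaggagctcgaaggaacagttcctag
Psmd4, chr3:95042565-95042864, minus strand: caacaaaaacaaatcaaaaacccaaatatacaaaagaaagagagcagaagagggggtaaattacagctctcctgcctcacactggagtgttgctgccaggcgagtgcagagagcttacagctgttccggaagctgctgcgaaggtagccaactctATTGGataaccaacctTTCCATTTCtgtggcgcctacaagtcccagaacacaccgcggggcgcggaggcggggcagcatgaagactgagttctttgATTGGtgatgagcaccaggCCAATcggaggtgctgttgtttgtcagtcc

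The motifs were the CCAAT box (CCAAT), the core of the antioxidant response element bound by NRF1 and NRF2 (TGACNNNGC), the E-box of the clock factors (CACGTG), the D-box (TTATGTAA), the half-site of REV-ERB and ROR (TAGGTCA), the element of interferon regulatory factors (GAAANNGAA) and the GAS element of interferon gamma responses (TTCNNNGAA). Positions count from the RefSeq start of the promoter printed. For Psmb8, Psmb9, Psmb10 and Psme1 this start lies inside the GENCODE gene, downstream of its outermost start. The Psmb8 promoter held a GAS element at -97, Psmb9 a CCAAT box at -8, Psmb10 an E-box at -116 and Psme1 an interferon regulatory factor element at 11. The Psmc2 promoter held a CCAAT box at -28, and Psmd4 held CCAAT boxes at -95, 2 and 21 and an interferon regulatory factor element at -79. No motif was shared by all 3 immunoproteasome promoters in these windows.

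Promoters were listed for 35 of the 42 genes, 34 of them tested. The CCAAT box was in 13 of these 34 and in 37.92% of the 27025 RefSeq promoters of the same length. The antioxidant response core was in 5 (12.47% of all promoters), the E-box in 4 (7.24%), the interferon regulatory factor element in 5 (8.57%) and the GAS element in 2 (8.47%). The half-site was in 1 (2.64%) and the D-box in 0 (0.95%). Of the 8 promoters listed for genes that were lower at ZT12, 0 held an E-box and 3 held a CCAAT box. A match is a run of letters and not a measured binding site.

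The livers carried hepatocyte RNA at high level, with all 8 hepatocyte markers tested and a summed level of 34428 to 48750 FPKM per mouse. Apolipoprotein A1 alone had a mean of 24802 FPKM (Apoa1). Absolute read depth is not known from FPKM values, and the deepest library had about 1.79 times the reads of the shallowest, estimated from genes at single reads. The deepest was vehicle replicate 2 at ZT12 and the shallowest treated replicate 2 at ZT12. The latter also held the highest values of Psmb8 and Psmb10, 63.8 and 68.2 FPKM. In bulk liver, fewer cells of a type and less RNA per cell cannot be told apart. The p-values measure the spread between mice.

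On the FPKM scale, which is per length, the core particle genes had the highest levels. Psmb4, a structural beta subunit, was the highest at a mean of 273 FPKM over the 12 mice, followed by the catalytic Psmb6 at 196 FPKM and the alpha subunit Psma7 at 183 FPKM. Psmb4 ranged from 253 to 319 FPKM and Psmb6 from 176 to 219 FPKM, so that the lowest Psmb4 value lay above the highest of Psmb6. Psmb6 and Psma7 overlapped, since Psma7 ranged from 160 to 215 FPKM. The lowest of the 40 were Psmd10 (gankyrin), an assembly chaperone of the base, at 6.85 FPKM, Psma3 at 11.97 FPKM and the activator Psme4 (PA200) at 14.0 FPKM.

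Class by class, the median over genes of the mean level was 161 FPKM for the 2 catalytic beta subunits, 151 FPKM for the 4 structural ones and 79.8 FPKM for the 7 alpha subunits. It was 69.1 FPKM for the 6 ATPases of the base, 56.0 FPKM for the 8 lid subunits, 52.2 FPKM for the 3 other base subunits and 45.2 FPKM for the 3 immunoproteasome subunits. The 4 activators had a median of 16.9 FPKM, although Psme1 stood at 119 FPKM, and the 3 base assembly chaperones one of 17.2 FPKM. Levels of subunits within a class were not equal: Psma3 and Psma5, at 11.97 and 15.8 FPKM, lay far below the other 5 alpha subunits, which had means of 70.4 to 183 FPKM, although each alpha subunit is present in the same number in a particle.

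**Figure D1:**
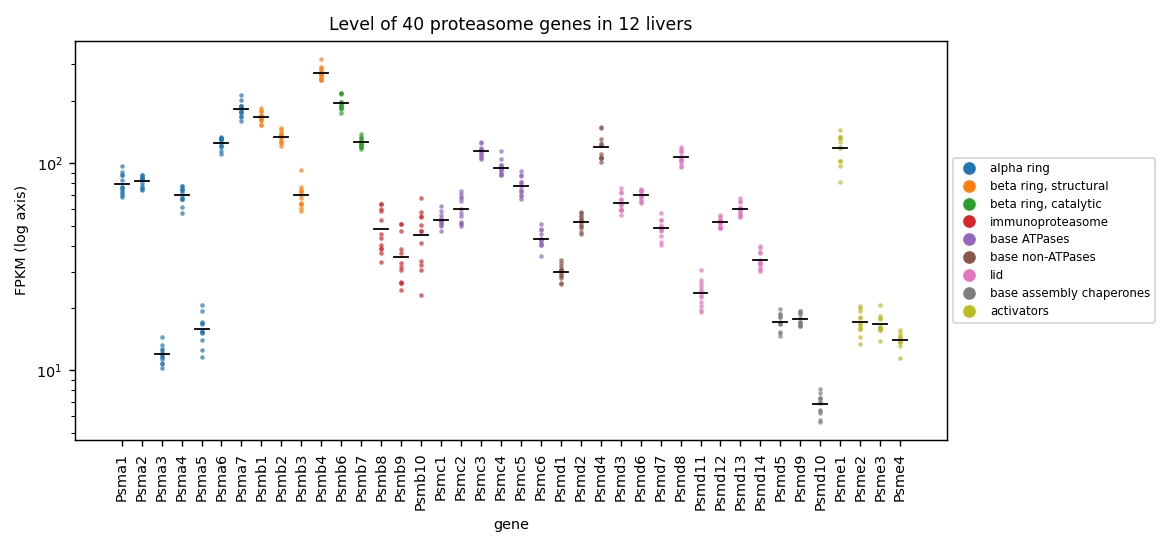
FPKM (log axis) of the 40 tested proteasome genes, 1 point per mouse (12 mice) and a bar at the mean, coloured by class. Beta ring genes reach 273 FPKM (Psmb4), immunoproteasome genes lie at 35.2 to 48.0 FPKM on average, and Psmd10 is lowest at 6.85 FPKM.

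The standard catalytic subunit Psmb5 could not be described, because its symbol occurs in the table only on a line shared with the microRNA Mir686. The values of that line ran from 105 to 4244 FPKM, with both of these in vehicle mice at ZT12, a wider spread between mice of 1 group than any other standard beta subunit had. GENCODE vM21 lists pseudogenes named for Psmb5, Psmb6 and Psmb7, so reads of these genes may have been lost to a similar copy. How alike the copies are was not checked, and copies under other names were not searched for. Loss of reads to copies was therefore not checked for the other subunits, Psma3 and Psma5 among them.

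The first comparison asked which subunit genes differed between the end of the light phase (ZT12) and its start (ZT0). Over both treatments, with treatment in the model, 4 of the 40 were higher at ZT12, against 15.9% of all 9806 genes, and 10 were lower, against 13.8% of all genes (limma, Benjamini-Hochberg adjusted p under 0.05). As shares of the 40 genes, the count of genes that were higher lay below the background and that of genes that were lower above it. The median log2 fold change on the log2(FPKM + 1) scale was -0.09 over the 40 genes and 0.01 over all genes tested, with 28 of the 40 negative and 12 positive. The 6 mice of ZT12 did not overlap the 6 of ZT0 for 2 genes that were higher, against 7.48% of all genes, and for 8 that were lower, against 5.84%. With quantile normalization in place of the FPKM as deposited, the counts were 4 higher and 19 lower.

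**Figure D2:**
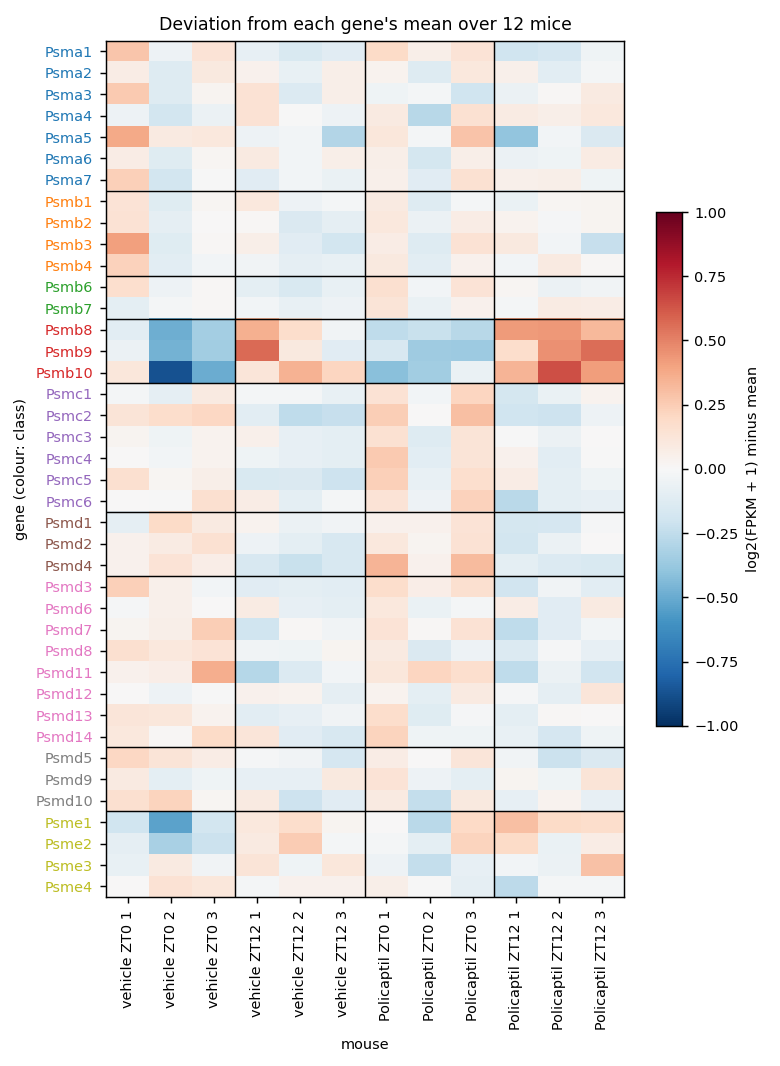
Each cell is the log2(FPKM + 1) of 1 gene in 1 mouse minus the gene's mean over the 12 mice, from blue (lower) to red (higher), with genes grouped by class and mice by group. Psmb8, Psmb9 and Psmb10 are mostly blue at ZT0 and red at ZT12, while Psmc2, Psmd4 and Psmd11 show the opposite order.

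Psmb8 (LMP7) is the immunoproteasome's chymotrypsin-like subunit, and its gene lies at chr17:34197721-34201454 (mm10, GENCODE) inside the MHC class II region. Psmb8 had 43.5, 33.2 and 36.9 FPKM in the vehicle mice at ZT0 and 60.4, 53.0 and 45.7 FPKM in those at ZT12. With Policaptil Gel Retard it had 39.2, 40.1 and 38.4 FPKM at ZT0 and 63.4, 63.8 and 59.0 FPKM at ZT12. Every mouse of ZT12 lay above every mouse of ZT0, and the treated mice of each time were close to one another. The mean was 38.5 ± 3.42 FPKM (SD, n = 6) at ZT0 and 57.5 ± 6.97 FPKM at ZT12, a log2 fold change of 0.56 ± 0.08 (SE; limma, adjusted p = 0.000324), or 47.7% on the FPKM + 1 scale.

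Psmb10 (MECL-1) is the trypsin-like subunit of the immunoproteasome and lies away from the MHC, at chr8:105935735-105938444. Psmb10 had 46.9, 23.2 and 30.5 FPKM in the vehicle mice at ZT0 and 47.2, 55.5 and 50.6 FPKM at ZT12. With treatment it had 32.3, 33.8 and 41.4 FPKM at ZT0 and 55.1, 68.2 and 58.3 FPKM at ZT12. Its groups did not overlap between the times, but by a narrow margin, because vehicle replicate 1 at ZT0 lay next to the lowest mouse of ZT12. Psmb10 had the largest change of the 40 genes, with a log2 fold change of 0.70 ± 0.14 (SE; limma, adjusted p = 0.00272).

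Psmb9 (LMP2) replaces Psmb6, and its gene at chr17:34181987-34187764 runs opposite to the peptide transporter gene Tap1, which starts at position 34187553. The starts are 211 bases apart and the genes overlap at their 5′ ends. The labels name a library kit that does not keep strand and the methods a stranded one, so reads of this overlap may be shared between both genes. Psmb9 had 32.8, 24.3 and 26.7 FPKM in the vehicle mice at ZT0 and 51.0, 36.7 and 31.5 FPKM at ZT12. In treated mice the values were 30.5, 26.5 and 26.3 FPKM at ZT0 and 38.7, 47.3 and 50.7 FPKM at ZT12. A single vehicle mouse at ZT0 lay above the lowest mouse of ZT12. The log2 fold change of Psmb9 was 0.58 ± 0.12 (SE; limma, adjusted p = 0.00344), and Tap1 differed by -0.32 (adjusted p = 0.0612).

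**Figure D3:**
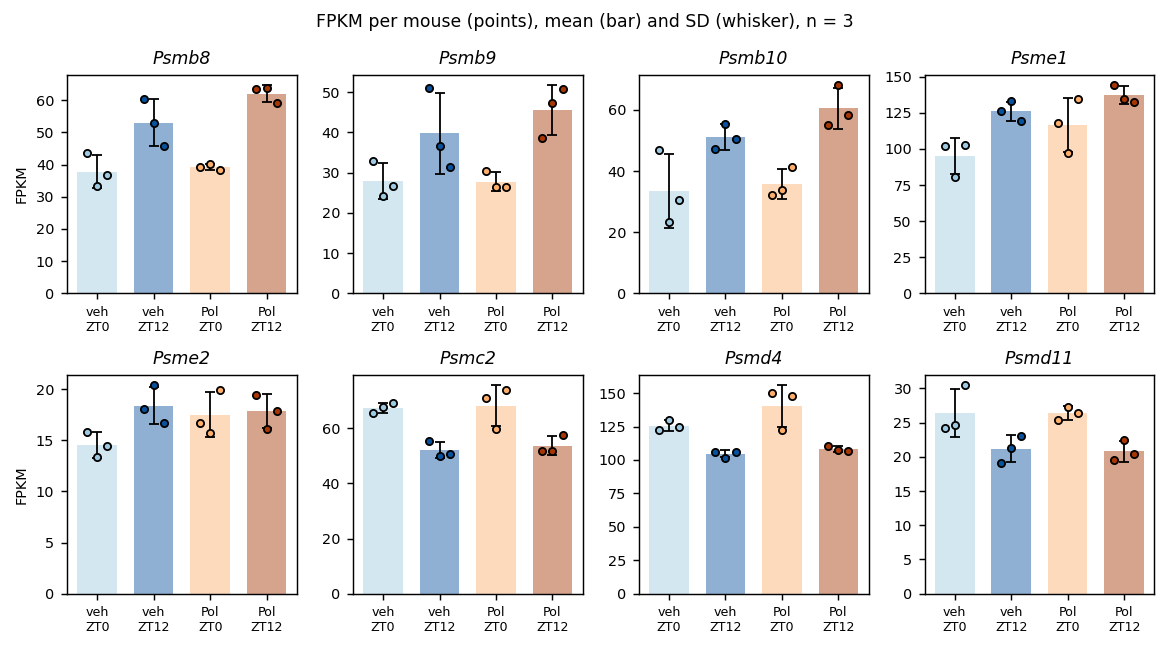
FPKM of 8 proteasome genes in each mouse (points), with the mean (bar) and SD (whisker) of 3 mice in the vehicle (veh) and Policaptil Gel Retard (Pol) groups at ZT0 and ZT12. Psmb8 lies between 33.2 and 43.5 FPKM at ZT0 and between 45.7 and 63.8 FPKM at ZT12, while Psmc2 lies between 59.8 and 73.8 FPKM at ZT0 and between 49.9 and 57.5 FPKM at ZT12.

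The standard counterparts of these subunits did not pass the test. Psmb6 had 219, 188 and 197 FPKM in the vehicle mice at ZT0 and 183, 176 and 185 FPKM at ZT12. In treated mice Psmb6 had 219, 192 and 215 FPKM at ZT0 and 198, 187 and 191 FPKM at ZT12. The times overlapped, and the log2 difference was -0.13 (95% interval -0.25 to -0.02; limma, adjusted p = 0.0867). Psmb7 had 118, 124 and 127 FPKM in the vehicle mice at ZT0 and 124, 120 and 122 FPKM at ZT12. In treated mice Psmb7 had 138, 120 and 130 FPKM at ZT0 and 124, 133 and 132 FPKM at ZT12. Its log2 difference between the times was 0.00 with an interval of -0.11 to 0.10, which leaves room for only a small change.

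The level of an immune subunit was set against that of the subunit it replaces within each mouse. Psmb9 over Psmb6 was 0.150, 0.129 and 0.135 in the vehicle mice at ZT0 and 0.279, 0.209 and 0.170 at ZT12. With treatment this ratio was 0.139, 0.138 and 0.122 at ZT0 and 0.195, 0.253 and 0.266 at ZT12, so that the times did not overlap. Psmb10 over Psmb7 had a mean of 0.275 ± 0.110 (SD, n = 3) in vehicle mice at ZT0 and 0.421 ± 0.041 at ZT12. With treatment it was 0.278 ± 0.043 at ZT0 and 0.465 ± 0.040 at ZT12. A single vehicle mouse at ZT0, with a ratio of 0.398, lay above the lowest ZT12 value of 0.382. At both times the standard subunit had the higher level in every mouse.

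The 4 structural beta subunits spanned log2 differences of -0.13 for Psmb3 to 0.00 for Psmb1, and 0 of 4 passed the test. Psmb4 had 319, 253 and 267 FPKM in vehicle mice at ZT0 and 266, 257 and 259 FPKM at ZT12. In treated mice Psmb4 had 292, 253 and 281 FPKM at ZT0 and 267, 289 and 275 FPKM at ZT12. The times overlapped in both treatments, while the 3 treated mice at ZT12 lay above the 3 vehicle mice at ZT12. The structural beta subunits Psmb1 and Psmb2 had mean levels of 167 and 134 FPKM over the 12 mice.

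Of the activators, Psme1 (PA28 alpha) was higher at ZT12. Psme1 had 102, 80.8 and 103 FPKM in vehicle mice at ZT0 and 126, 133 and 120 FPKM at ZT12. With treatment it had 118, 97.4 and 135 FPKM at ZT0 and 144, 134 and 133 FPKM at ZT12. In vehicle mice the times did not overlap, whereas in treated mice 1 mouse at ZT0 reached the level of ZT12. The log2 fold change over both treatments was 0.33 ± 0.09 (SE; limma, adjusted p = 0.0142).

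Psme2 (PA28 beta) forms a ring together with Psme1, and its gene lies 12990 bases from it, start to start. Psme2 had 15.8, 13.3 and 14.5 FPKM in vehicle mice at ZT0 and 18.1, 20.4 and 16.7 FPKM at ZT12. In treated mice this gene had 16.7, 15.7 and 19.9 FPKM at ZT0 and 19.4, 16.1 and 17.9 FPKM at ZT12. The treated groups overlapped, and the difference of 0.17 over both treatments did not pass (adjusted p = 0.148). Psme1 over Psme2 lay between 6.06 and 8.33 in all 12 mice.

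The other 2 activators did not pass. Psme3 (PA28 gamma), a nuclear activator, had 15.7, 17.7 and 16.2 FPKM in vehicle mice at ZT0 and 18.2, 16.0 and 17.99 FPKM at ZT12. In treated mice Psme3 had 16.0, 13.9 and 15.6 FPKM at ZT0 and 16.3, 15.9 and 20.6 FPKM at ZT12, a log2 difference between times of 0.13 (adjusted p = 0.197). Psme4 had 14.0, 15.6 and 15.2 FPKM in vehicle mice at ZT0 and 13.8, 14.4 and 14.4 FPKM at ZT12. In treated mice Psme4 had 14.6, 13.9 and 13.1 FPKM at ZT0 and 11.5, 13.8 and 13.8 FPKM at ZT12. Of both genes the times overlapped.

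In the base of the regulatory particle, all 9 subunits had a negative log2 difference at ZT12, and 4 passed the test. Psmc2 (Rpt1), an ATPase of the ring, had 65.4, 67.6 and 69.0 FPKM in vehicle mice at ZT0 and 55.4, 49.9 and 50.7 FPKM at ZT12. With treatment it had 71.0, 59.8 and 73.8 FPKM at ZT0 and 51.9, 51.6 and 57.5 FPKM at ZT12. Every mouse of ZT12 lay below every mouse of ZT0. Psmc2 fell by 0.35 on the log2 scale, with an SE of 0.06 (limma, adjusted p = 0.00113), which is -21.7% on the FPKM + 1 scale.

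Psmd4 (Rpn10), a ubiquitin receptor of the base, had 122, 130 and 125 FPKM in vehicle mice at ZT0 and 106, 101 and 106 FPKM at ZT12. In treated mice Psmd4 had 150, 122 and 148 FPKM at ZT0 and 111, 108 and 106 FPKM at ZT12. The times did not overlap, and the ZT12 mice lay within 101 to 111 FPKM. Psmd4 fell by 0.31 on the log2 scale, with an SE of 0.06 (limma, adjusted p = 0.00199).

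Psmc5 (Rpt6) fell by 0.19 (adjusted p = 0.0361). It had 86.5, 78.8 and 81.0 FPKM in vehicle mice at ZT0 and 69.5, 69.9 and 66.9 FPKM at ZT12. In treated mice it had 91.7, 73.6 and 87.4 FPKM at ZT0 and 81.5, 72.4 and 75.2 FPKM at ZT12, so that its treated groups overlapped. The call of Psmc5 was lost in 9 of 20 alternatives, with an adjusted p of up to 0.081. Each of the 9 left out 1 library, and the only libraries whose removal kept the call were replicate 2 of both ZT0 groups and treated replicate 1 at ZT12. Psmd2 (Rpn1), a scaffold that holds shuttle proteins, fell by 0.18 without overlap of the times (adjusted p = 0.0163).

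The other ATPases Psmc1, Psmc3, Psmc4 and Psmc6 had log2 differences of -0.06 to -0.16, and Psmd1 one of -0.14, and none of these 5 passed. Psmc6 had 43.1, 42.8 and 48.3 FPKM in vehicle mice at ZT0 and 45.4, 40.2 and 42.5 FPKM at ZT12. The treated mice had 47.4, 41.5 and 50.7 FPKM at ZT0 and 35.6, 40.2 and 40.6 FPKM at ZT12, without overlap. Psmc1 had 52.5, 49.9 and 56.5 FPKM in vehicle mice at ZT0 and 52.4, 52.4 and 50.4 FPKM at ZT12. With treatment it had 58.9, 52.1 and 62.0 FPKM at ZT0 and 46.9, 50.8 and 54.4 FPKM at ZT12. The interactions of time and treatment of these 2 genes, -0.19 for Psmc6 and -0.15 for Psmc1, did not pass (limma, adjusted p = 0.852 and 0.869).

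Of the 8 lid subunits, 3 were lower at ZT12. Psmd11 (Rpn6), which ties the lid to the core, had 24.2, 24.6 and 30.5 FPKM in vehicle mice at ZT0 and 19.1, 21.3 and 23.1 FPKM at ZT12. In treated mice it had 25.4, 27.3 and 26.4 FPKM at ZT0 and 19.5, 22.5 and 20.4 FPKM at ZT12. The times did not overlap, and Psmd11 fell by 0.32 on the log2 scale, with an SE of 0.07 (limma, adjusted p = 0.00499).

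Psmd3 (Rpn3) fell by 0.22 (adjusted p = 0.0104), from a range of 63.1 to 76.0 FPKM at ZT0 to one of 56.1 to 62.6 FPKM at ZT12. Psmd7 (Rpn8), the partner of the deubiquitinating subunit, fell by 0.21 (adjusted p = 0.0256). The range of Psmd7 was 48.7 to 57.4 FPKM at ZT0 and 40.2 to 48.6 FPKM at ZT12, which met at the edge without overlap, and its call was lost in 5 of 20 alternatives (adjusted p up to 0.0619). These left out vehicle replicate 3 at ZT0, vehicle replicate 1 at ZT12, treated replicate 1 or 3 at ZT0, or treated replicate 1 at ZT12. Psmd14 (Rpn11), the deubiquitinase itself, differed by -0.15 and did not pass (adjusted p = 0.125).

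The other lid subunits Psmd6, Psmd8, Psmd12 and Psmd13 had log2 differences of -0.10 to 0.00, and 0 of 4 passed. Psmd8 (Rpn12) had 119, 115 and 117 FPKM in vehicle mice at ZT0 and 104, 103 and 108 FPKM at ZT12. In treated mice Psmd8 had 113, 96.2 and 103 FPKM at ZT0 and 96.7, 106 and 100 FPKM at ZT12. The vehicle groups did not overlap between the times and the treated groups did.

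In the alpha ring 2 of 7 subunits were lower. Psma5 (alpha 5) fell by 0.31 on the log2 scale, with an SE of 0.09 (limma, adjusted p = 0.0156). Psma5 lay between 15.4 and 20.6 FPKM at ZT0 and between 11.7 and 15.4 FPKM at ZT12, again without overlap. Psma1 (alpha 6) fell by 0.25 (adjusted p = 0.0083), from 86.9 ± 6.84 FPKM (SD, n = 6) to 72.6 ± 3.04 FPKM, with 1 ZT0 mouse inside the range of ZT12. The other 5 had log2 differences of -0.05 to 0.11.

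Psma7 and Psma3 were among these 5. Psma7 (alpha 4) had 215, 160 and 182 FPKM in vehicle mice at ZT0 and 168, 179 and 174 FPKM at ZT12. In treated mice Psma7 had 189, 169 and 202 FPKM at ZT0 and 189, 190 and 176 FPKM at ZT12. Psma3 (alpha 7) had 14.5, 10.8 and 12.1 FPKM in vehicle mice at ZT0 and 13.3, 10.7 and 12.5 FPKM at ZT12. In treated mice Psma3 had 11.5, 11.8 and 10.2 FPKM at ZT0 and 11.4, 12.1 and 12.7 FPKM at ZT12. The times overlapped widely for both.

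Of the 3 chaperones that assemble the base, Psmd5 (S5b) fell by 0.20 (limma, adjusted p = 0.0118), from 17.2 to 19.9 FPKM at ZT0 to 14.6 to 17.0 FPKM at ZT12, without overlap. Psmd9 (p27) differed by 0.02 and Psmd10 by -0.12, and neither passed. Psmd10 had 7.75, 8.10 and 6.94 FPKM in vehicle mice at ZT0 and 7.29, 5.77 and 6.23 FPKM at ZT12. In treated mice Psmd10 had 7.32, 5.64 and 7.37 FPKM at ZT0 and 6.36, 6.999 and 6.40 FPKM at ZT12.

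**Figure D4:**
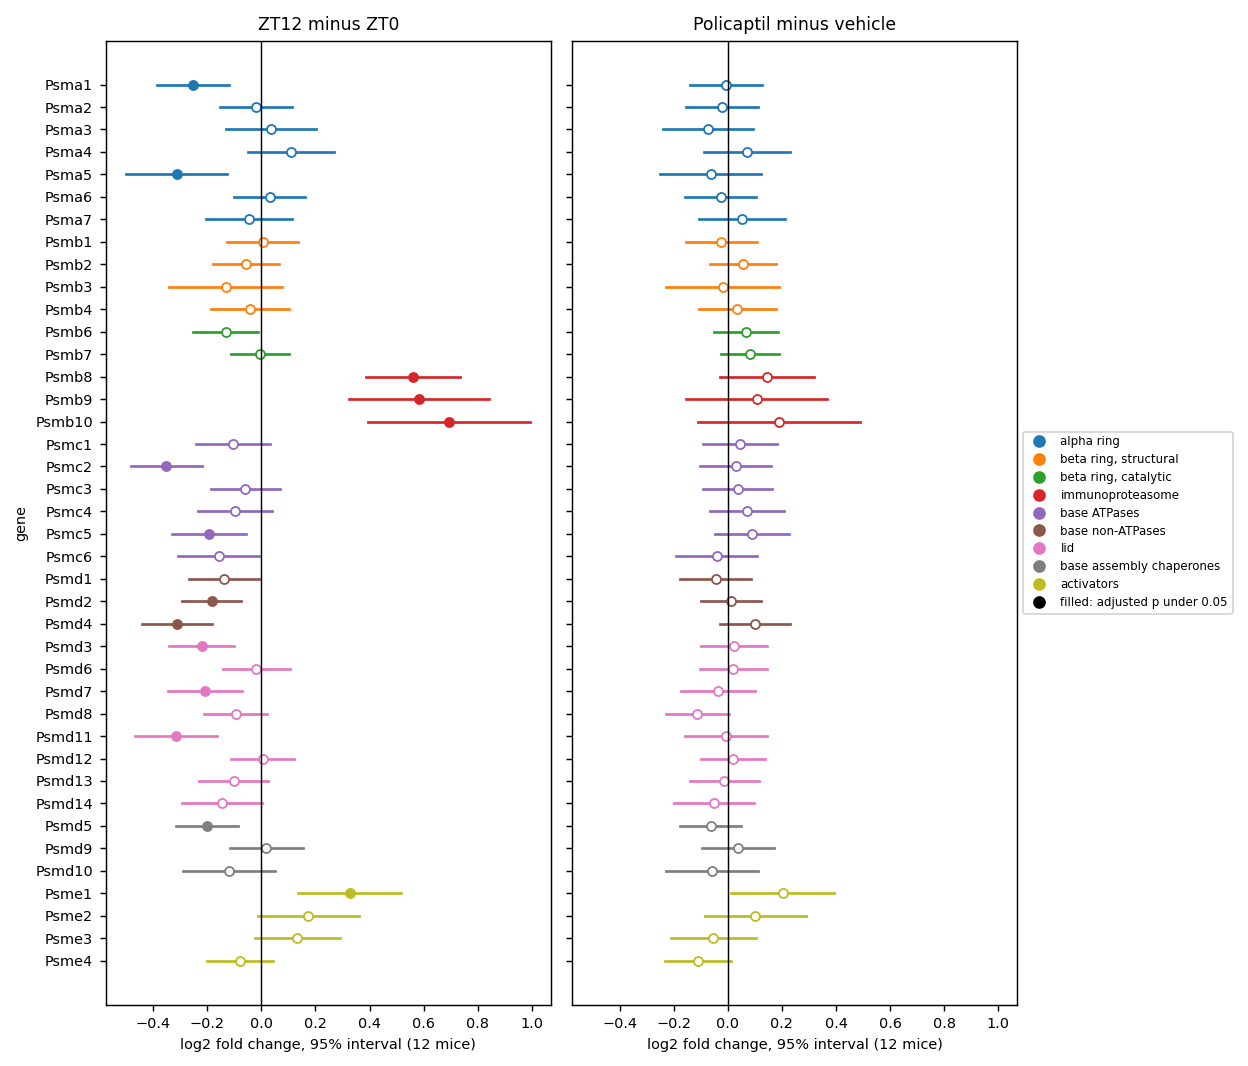
log2 fold change on the log2(FPKM + 1) scale with its 95% interval for the 40 genes, for ZT12 against ZT0 (left) and Policaptil Gel Retard against vehicle (right), each over 12 mice and coloured by class. A filled point has an adjusted p under 0.05. On the left 4 genes are filled to the right of 0 and 10 to the left, and on the right none is filled and every interval lies between -0.25 and 0.49.

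Within each treatment there were 3 mice against 3, and fewer genes passed. In vehicle mice 0 genes were higher (5.62% of all genes) and 1 was lower (4.78% of all genes), which was Psmc2 with -0.37 (limma, adjusted p = 0.0318). At an unadjusted p under 0.05, 5 were higher (14.4% of all genes) and 7 lower (13% of all genes). The 5 were the 3 immunoproteasome subunits with both PA28 genes. Psmc2 lost its call in vehicle mice when any of 4 libraries was left out, vehicle ZT0 replicate 2 or 3 or vehicle ZT12 replicate 2 or 3, with an adjusted p of up to 0.126.

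With Policaptil Gel Retard, 3 genes were higher (7% of all genes) and 1 was lower (5.36% of all genes). The 3 were Psmb8 with 0.65, Psmb9 with 0.69 and Psmb10 with 0.74 (limma, adjusted p = 0.00366, 0.0142 and 0.0125). The gene that was lower was Psmd11, with -0.33 (adjusted p = 0.0446), and this call was lost in 10 of 15 alternatives, with any 1 of the 6 libraries left out among them (adjusted p up to 0.115). Psmb9 lost its call in 4 of 15 alternatives, which were no minimum FPKM, the replicate block, and leaving out treated replicate 3 at ZT0 or replicate 2 at ZT12, with an adjusted p of 0.051 to 0.0566. At an unadjusted p under 0.05, 3 were higher (15.7% of all genes) and 10 lower (13.4% of all genes). With 3 mice against 3, the exact permutation test cannot go below a p of 0.1.

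That these counts differ between the treatments does not show that the change over time differed. The vehicle changes were 0.48, 0.48 and 0.65 for Psmb8, Psmb9 and Psmb10. The interaction of time and treatment was 0.17 for Psmb8, 0.21 for Psmb9 and 0.09 for Psmb10, with intervals from -0.18 to 0.52, -0.32 to 0.74 and -0.53 to 0.72. None passed (limma, adjusted p = 0.878, 0.91 and 0.972), and of all 9806 genes 0 passed for the interaction.

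Over all 40 genes the interaction passed at an unadjusted p under 0.05 for 0 genes in the positive direction (3.82% of all genes) and 0 in the negative (2.8% of all genes). The smallest p was that of Psme2, 0.0918, with an interaction of -0.29. For 33 of the 40 genes the 95% interval of the interaction lay within 0.5 on the log2 scale on either side of 0.

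Policaptil Gel Retard was then set against vehicle at each time, to see whether the treatment moved subunit genes. At ZT0, 0 genes were higher (3.42% of all genes) and 0 lower (5.81% of all genes) at an unadjusted p under 0.05. At ZT12, 0 were higher (3.07% of all genes) and 0 lower (3.67% of all genes). The smallest adjusted p of a subunit gene was 0.587 at ZT0 and 0.729 at ZT12 (limma). Of all 9806 genes, 0 passed the adjusted threshold at either time. The log2 differences ran from -0.17 to 0.29 at ZT0 and from -0.14 to 0.24 at ZT12.

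At ZT0 the largest of these was Psme1, with 0.29 and an interval of -0.07 to 0.65, followed by Psme2 with 0.25. At ZT12 the 3 immunoproteasome subunits had differences of 0.23 for Psmb8, 0.21 for Psmb9 and 0.24 for Psmb10. Their groups overlapped, and the interval of Psmb8 ran from -0.02 to 0.48. At ZT0 the 3 treated mice lay below the 3 vehicle mice for 1 of the 40 genes, Psmd8 with -0.17, and above them for 0. The share of all genes was not computed for ZT0. At ZT12 the 3 treated mice lay above the 3 vehicle mice for 5 of the 40 genes (5.88% of all genes) and below them for 0 (7.26% of all genes). These were Psmc5 with 0.15, Psmb7 with 0.09, Psmb4 with 0.09, Psmb6 with 0.08 and Psmd4 with 0.05, and none had an unadjusted p under 0.05 (limma). These comparisons share their vehicle and treated mice with the comparisons over time.

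Over both times, with time in the model, 1 subunit gene was higher with treatment at an unadjusted p under 0.05 (3.82% of all genes) and 0 were lower (6.28% of all genes). The gene was Psme1, with 0.20 (exact permutation test within each time, two-sided p = 0.045; limma, adjusted p = 0.476). The smallest p this exact test allows is 0.005. Of all 9806 genes, 1 was higher and 1 lower past the adjusted threshold (limma). The differences of the 40 genes lay between -0.11 and 0.20. All 40 intervals lay within 0.5 on either side of 0. Psmd8 and Psme4 had the lowest differences, each -0.11, with intervals that reached above 0 and an exact permutation p of 0.025 each (limma, adjusted p = 0.5 and 0.525). The exact p-values are not adjusted for the 40 genes. Psme1, Psmd8 and Psme4 were named because they had the smallest limma p in this same comparison.

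Other genes that work with the proteasome were counted over both treatments by time of day (limma, adjusted p under 0.05). For all lists the background is the same as above, 15.9% of all genes higher at ZT12 and 13.8% lower. Of 10 other proteasome-bound proteins tested, Psmf1, the inhibitor PI31, was higher by 0.18, and Zfand5 and Txnl1 were lower, at -0.26 and -0.23. None of the 5 chaperones that assemble the core passed, among them Pomp, with a mean of 253 FPKM. None of the 4 genes of ubiquitin and its activating enzymes passed.

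Of 12 shuttle and p97 genes, 4 were lower at ZT12. Ubqln1, which carries ubiquitinated proteins to the proteasome, lay between 31.8 and 40.7 FPKM at ZT0 and fell to between 24.2 and 30.2 FPKM at ZT12, by 0.39. Ubxn1, a cofactor of p97, fell by 0.70, Ubqln2 by 0.27 and Vcp, the p97 segregase itself, by 0.24.

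Of 11 regulators of proteasome genes, Foxo1 and Foxo3 were higher by 0.61 and 0.58, and Nfyb, a subunit of the factor that binds CCAAT boxes, and Hsf2 were lower, at -0.36 and -0.23. Nfe2l1, which encodes the factor NRF1 that induces proteasome genes when the protease is inhibited, differed by -0.14 and did not pass (adjusted p = 0.217). Nfe2l2 differed by 0.05 (adjusted p = 0.603).

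Among 13 genes of MHC class I presentation, 3 were higher and 4 lower. Erap1, which trims peptides in the endoplasmic reticulum, was higher by 0.33, Nlrc5, the transactivator of class I genes, by 0.30 and Tap2, the partner of Tap1 in the peptide transporter, by 0.22. Calr, Pdia3 and Canx, chaperones of the endoplasmic reticulum that fold many proteins, fell by 1.08, 0.79 and 0.44. Irf1, an interferon-induced factor known to act on immunoproteasome promoters, lay between 17.4 and 29.0 FPKM at ZT0 and between 11.4 and 18.4 FPKM at ZT12. Irf1 fell by 0.71 (limma, adjusted p = 0.00194), and its part in the levels of Psmb8, Psmb9 and Psmb10 was not tested. B2m, the light chain of class I molecules, differed by 0.18 and did not pass.

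Immune cells carry immunoproteasome subunits at high level, so their markers were set beside these genes. Of the 9 macrophage and Kupffer cell markers in the table, 5 were tested, 0 were higher at ZT12 and Lyz2 was lower by 0.63. Their summed level per mouse was 34.4 to 39.9 FPKM in vehicle mice at ZT0 and 17.7 to 41.6 FPKM at ZT12. With treatment it was 22.7 to 36.0 FPKM at ZT0 and 20.1 to 33.4 FPKM at ZT12. The defining marker Adgre1 had a mean of 0.452 FPKM and Clec4f one of 9.04 FPKM.

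None of the 9 lymphocyte and leukocyte markers reached a mean of 1 FPKM. Their sum was 2.18 to 2.91 FPKM in vehicle mice at ZT0, 1.20 to 2.06 FPKM in vehicle mice at ZT12, 2.86 to 3.64 FPKM in treated mice at ZT0 and 1.51 to 2.59 FPKM in treated mice at ZT12. Within each treatment the sum lay lower at ZT12 without overlap, while across the treatments the times overlapped. Its relation to the subunit genes was not tested. Of the class II and neutrophil markers 3 and 2 were tested and 0 passed. The summed class II markers were 25.5 to 61.6 FPKM and 24.6 to 34.4 FPKM in vehicle mice at ZT0 and ZT12, and 33.9 to 34.4 FPKM and 36.5 to 42.3 FPKM in treated mice. The summed neutrophil markers were 1.18 to 10.6 FPKM and 0.796 to 3.49 FPKM in vehicle mice at ZT0 and ZT12, and 6.40 to 10.1 FPKM and 2.54 to 18.9 FPKM in treated mice.

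Of 5 endothelial markers, the 4 tested, Kdr, Cdh5, Pecam1 and Stab2, fell by 0.39 to 0.51. Their mean levels were low, at 1.35 to 2.33 FPKM. Lyve1, with a mean of 0.478 FPKM, was not tested, and its times overlapped in treated mice but not in vehicle mice. The summed level of the 5 was 6.84 to 9.96 FPKM in vehicle mice and 8.08 to 9.97 FPKM in treated mice at ZT0, and 3.96 to 5.48 FPKM and 5.08 to 6.26 FPKM at ZT12. Of the 8 hepatocyte markers, Cyp2e1 and Hnf4a were higher at ZT12, by 0.53 and 0.31. The part of these cell types in the differences of the subunit genes was not tested. Of 7 pancreas markers, 6 were listed at 0 in every mouse.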

How the data were processed

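Liver RNA of 12 mice, 3 per group, was measured by RNA-seq, and the authors deposited its FPKM values, 1 table for all genes and samples. The methods describe alignment to mm10 with ELAND and values scaled to transcript length and mapped reads, while the submitters' processing notes name TopHat and Cuffnorm. Groups and replicate numbers came from the sample titles. Of the 24138 lines, 289 repeated a symbol and were dropped in favour of the line of higher mean, leaving 23849 symbols.

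A pseudocount of 1 was added, and log2(FPKM + 1) was tested for the 9806 genes averaging 1 FPKM or more. Differences of low genes are understated on that scale. Tests were two-sided and used limma 3.58.1 under R 4.3.3, with moderated variances that followed a trend on the mean, and Benjamini-Hochberg adjustment over all genes tested. Groups were compared in fits of their 6 samples. The interaction and the effects over both treatments or times were fitted on the 12 samples. Intervals are 95% intervals of that fit. The exact permutation test used all arrangements of the labels within each time. The script was tested on simulated data.

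The member genes and the pathway and marker lists were chosen with earlier results of these data known. Values in every mouse are given for the 5 genes with the smallest p in each comparison of 2 groups, the 3 with the smallest p in each comparison over 12 mice, the catalytic and immune subunits, the activators, and the 3 highest and 3 lowest genes. Other genes that passed a test are given by their range or fold change. Coordinates are from GENCODE vM21 (mm10), and promoters are from RefSeq (GRCm38.p6). Motifs were searched in both strands. Some genes of the pathway lists are not reported here.

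Alternatives changed the pseudocount to 0.1 or the minimum mean to none or 5 FPKM, dropped the variance trend, scaled libraries by median ratios or by quantile normalization, added a replicate block, fitted all 12 samples or left out single libraries. Removing trends on transcript length and GC content was chosen after seeing the data. FPKM values do not show the read counts, so counting error could not be estimated by itself. The precision of each mean rests on the spread of the mice.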

Additional observations from a re-analysis of the deposited data

How the results depend on the processing

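Over both treatments, the 4 genes higher and 10 lower at ZT12 were 19 lower with quantile normalization, and leaving out 1 library gave 4 to 5 higher and 8 to 11 lower. In vehicle mice the count of genes that were higher, 0 as reported (limma, adjusted p; 5 at an unadjusted p under 0.05), was 2 in the fit over 12 samples, 2 with the trends on length and GC content removed and 0 to 1 with a library left out. The count of genes that were lower, 1 as reported, was 2 with no minimum FPKM, 2 with quantile normalization and 0 to 1 with a library left out. With Policaptil Gel Retard the count of genes that were lower, 1 as reported, was 0 with no minimum FPKM, 2 with a minimum mean of 5 FPKM, 4 with median-ratio scaling, 6 with quantile normalization, 2 in the fit over 12 samples and 0 to 2 with a library left out. The cause of these changes was not tested. Of 355 alternative values of single genes that passed, 322 kept the call, 33 lost it and 0 reversed. The replicate numbers did not pair the mice: same-numbered mice deviated together with correlations of -0.28 to 0.26. With the replicate number as a block, 4 genes were higher and 10 lower over both treatments, and 0 were lower in vehicle mice and 0 with Policaptil Gel Retard. Absolute depth is unknown, which limits what can be said of Psma8 and Psmb11.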
